A study of Danio rerio with 6 samples.

Results

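The miRNAs miR-99, miR-100 and miR-125 were followed through whole zebrafish embryos at 24 and 48 h post fertilization (hpf). Members were all mature miRNAs of the deposited table that bear any of these names, with any letter or arm suffix. They were dre-miR-99, dre-miR-100, dre-miR-125a, dre-miR-125b and dre-miR-125c (written below without the prefix for Danio rerio), 5 of the 230 mature miRNAs listed, and came from 10 of the 286 precursor entries. Embryos of the wild-type AB strain were injected at the 1-cell stage with 1.5 ng of either the antisense morpholino MO-Tbx5a, which covers the translational start of tbx5a, or the control MO-Ct. A library was made from 50 pooled embryos; both morpholinos had 2 libraries at 24 hpf and 1 at 48 hpf. All embryos were thus injected, and no library of uninjected embryos was analysed here. A translation-blocking morpholino leaves the tbx5a transcript in place, so small RNA libraries cannot show how far Tbx5a was reduced.

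miRNAs are short RNAs that guide Argonaute proteins to mRNAs through their seed, the bases near the 5′ end. miR-99 and miR-100 share a seed, whereas the miR-125 miRNAs carry another and are the vertebrate relatives of lin-4. In Caenorhabditis elegans, lin-4 and let-7 time the larval stages, and in Drosophila melanogaster miR-100, let-7 and miR-125 are made from a common transcript. Vertebrate genomes keep several copies of this arrangement, and let-7 and miR-125 are known for their rise as embryonic tissues, the nervous system among them, differentiate.

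The zebrafish copies keep the same neighbours. In the RefSeq annotation, each of the 10 member precursors had a let-7 gene within 50000 bases. mir-100-1 and mir-100-2 lay beside let-7a-2 and let-7a-4, with mir-125b-1 and mir-125b-2 as the third gene. mir-99-1 lay beside let-7c-1 and mir-125c, and mir-99-2 beside let-7c-2 and mir-125b-3. mir-125a-1 and mir-125a-2 lay beside let-7d-1 and let-7d-2, with no miR-99 or miR-100 gene near them. A mature miRNA can therefore come from several clusters: miR-100 comes only from clusters with let-7a and miR-125b, whereas miR-125b comes from clusters of either kind. Only miR-125c has 1 precursor entry.

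The libraries held an estimated 1699876 to 3148888 read assignments to mature miRNAs, from the smallest step between values. The study's own totals of miRNA reads are lower for each library and put the MO-Tbx5a library at 48 hpf above the MO-Ct library, the reverse of the estimates, and the cause was not tested. Values are normalized reads, that is the reads of a library divided by its DESeq size factor, averaged over the precursor entries of a mature miRNA. No member was below an estimated 52 reads in any library, where the counting error alone is 13.9%, or larger if a read was assigned more than once. The miR-430 family, which is expressed in the early embryo, made up 46.0% to 58.7% of each library's normalized reads at 24 hpf, 15.2% in the MO-Ct-labelled library at 48 hpf and 5.15% in the MO-Tbx5a-labelled library at 48 hpf. All 9 miRNAs listed as markers of muscle, nervous system, epidermis and blood had at least 10 normalized reads in every library. The direction of any difference at 48 hpf rests on the labels of the libraries, and these are in doubt. The study's list of miRNAs changed at 48 hpf runs almost throughout in the opposite direction to the labels, miR-125a and miR-125b included. miR-34a, singled out after its values were seen, had 379 and 591 normalized reads in the MO-Ct batches and 1566 and 1295 in the MO-Tbx5a batches at 24 hpf, but 541 in the MO-Ct-labelled and 83.7 in the MO-Tbx5a-labelled library at 48 hpf. The libraries at 48 hpf are therefore named as labelled, and the main changes that separate the morpholinos at that stage are also given with the labels exchanged.

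At 24 hpf, miR-100 was the most abundant member by far. It had 3584 and 3766 normalized reads in MO-Ct batches 1 and 2, and 3331 and 2850 in MO-Tbx5a batches 1 and 2. It made up 82.5% to 84.4% of the normalized reads of the 5 members in these libraries. The mature forms are of similar length, but adapter ligation differs between sequences, so an order of levels between miRNAs is an order of reads.

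The other members were an order of magnitude lower at 24 hpf. miR-125c, from the cluster with mir-99-1, had 254 and 316 normalized reads in the MO-Ct batches and 198 and 209 in the MO-Tbx5a batches. miR-125b had 266 and 214 in the MO-Ct batches and 200 and 186 in the MO-Tbx5a batches. The levels of miR-125b and miR-125c overlapped over the 4 libraries, and no order could be given between them.

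miR-125a was near the lowest of the members. It had 118 and 138 normalized reads in the MO-Ct batches and 97.3 and 85.1 in the MO-Tbx5a batches, from an estimated 52 to 150 reads. miR-99 had 112 and 132 in the MO-Ct batches and 121 and 101 in the MO-Tbx5a batches. The ranges of miR-99 and miR-125a over the 4 libraries overlapped, and each lay below all values of miR-125b and miR-125c.

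At 48 hpf every member was higher than in any library at 24 hpf, in either morpholino, as were 25.2% of 214 miRNAs. miR-100 had 5523 normalized reads in the MO-Ct-labelled library and 7028 in the MO-Tbx5a-labelled library. miR-99 had 536 and 861 in the same order. Neither of these pairs overlapped with the values at 24 hpf.

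The miR-125 miRNAs had the same arrangement of stages, with unequal distances between the libraries at 48 hpf. miR-125a had 873 normalized reads in the MO-Ct-labelled library and 3918 in the MO-Tbx5a-labelled library, from an estimated 1872 and 7158 reads. miR-125b had 627 and 1492 in the same order, and miR-125c had 1120 and 1358. Thus miR-125a, which lay below miR-125b and miR-125c in each library at 24 hpf, lay above both of them in the MO-Tbx5a-labelled library and between them in the MO-Ct-labelled library.

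**Figure D1:**
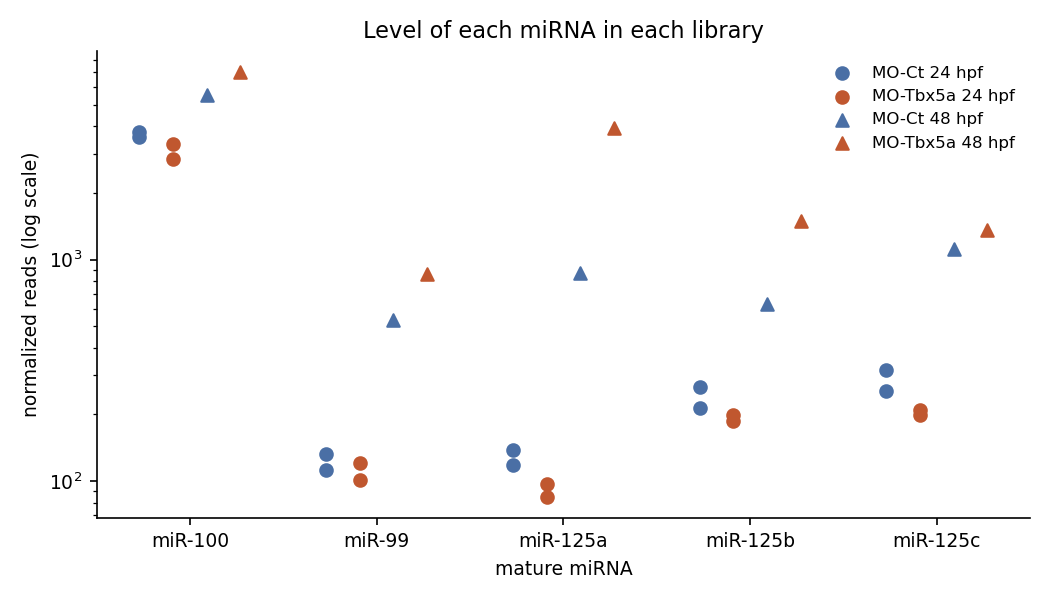
Normalized reads (log axis) of the 5 mature miRNAs in each of the 6 libraries, 1 point per library, circles for 24 hpf and triangles for 48 hpf. The triangles of each miRNA lie above all of its circles, and the widest gap between the 2 triangles is that of miR-125a (873 and 3918).

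The change from 24 to 48 hpf was tested with limma in 1 fit of the 6 libraries by group, on log2(normalized reads + 2), a scale on which changes of low miRNAs come out too small. The contrast was the mean of the stage changes within the 2 morpholinos, which does not depend on the labels at 48 hpf. All 5 members rose, with an adjusted p under 0.05 after Benjamini-Hochberg adjustment over 214 miRNAs. Of all miRNAs tested, 26.2% rose and 43.0% fell by this rule. The median log2 fold change was 2.35 over the 5 members and -0.29 over all 214 miRNAs.

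miR-125a rose most among the members, by 4.08 on the log2 scale (limma, adjusted p = 3.16e-70, standard error 0.19). It ranked 2 of 214 by log2 fold change, after let-7d, the let-7 that neighbours its precursors. miR-99 followed with 2.53 (standard error 0.20), miR-125c with 2.35 (standard error 0.17) and miR-125b with 2.16 (standard error 0.18). The intervals of 1 standard error around miR-99, miR-125c and miR-125b all overlapped each other, so no order could be given between these. miR-100 rose least, by 0.89 on the log2 scale (limma, adjusted p = 1.64e-09, standard error 0.14), and ranked 47 of 214.

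These p rest on a spread that limma pooled over miRNAs of similar abundance, with no separate weight for the spread of the member itself. They also rest on the assumption that a lone library at 48 hpf varies as the batches at 24 hpf do. Without the variance trend the adjusted p from limma stayed under 0.05 for every member, the largest over all alternatives being 0.00875 for miR-100. The size of the rise depended on the scaling: with library totals, which the loss of miR-430 reads affects directly, the median over all miRNAs moved up by 1.40 on the log2 scale and the log2 fold change of miR-100 was 2.29.

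The rise was present in each of the libraries at 48 hpf and was of unequal size. As labelled, miR-125a was 6.82-fold higher at 48 hpf than the mean of the 24 hpf batches in MO-Ct and 43.0-fold higher in MO-Tbx5a. On the log2 scale this was 2.75 and 5.40 (standard error 0.26 each). With the labels exchanged, miR-125a was 30.6-fold higher in MO-Ct and 9.57-fold higher in MO-Tbx5a, so the order of the morpholinos turned. As labelled, miR-125b was 2.61-fold higher in MO-Ct and 7.73-fold higher in MO-Tbx5a, and with exchanged labels 6.22-fold and 3.25-fold.

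For the remaining members the folds in the 2 morpholinos lay closer together. As labelled, miR-99 was 4.38-fold higher at 48 hpf in MO-Ct and 7.76-fold higher in MO-Tbx5a, and with exchanged labels 7.04-fold and 4.83-fold. miR-125c was 3.93-fold and 6.67-fold higher as labelled, and 4.76-fold and 5.50-fold higher with exchanged labels. The log2 fold change of miR-100 was 0.59 in MO-Ct and 1.19 in MO-Tbx5a as labelled, and 0.94 and 0.84 with exchanged labels. By either labelling the adjusted p within each morpholino was under 0.05 from limma for all 5 members. As labelled, 17.3% of 214 miRNAs rose in MO-Ct and 27.1% rose in MO-Tbx5a, and with exchanged labels 24.3% and 22.0%.

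**Figure D2:**
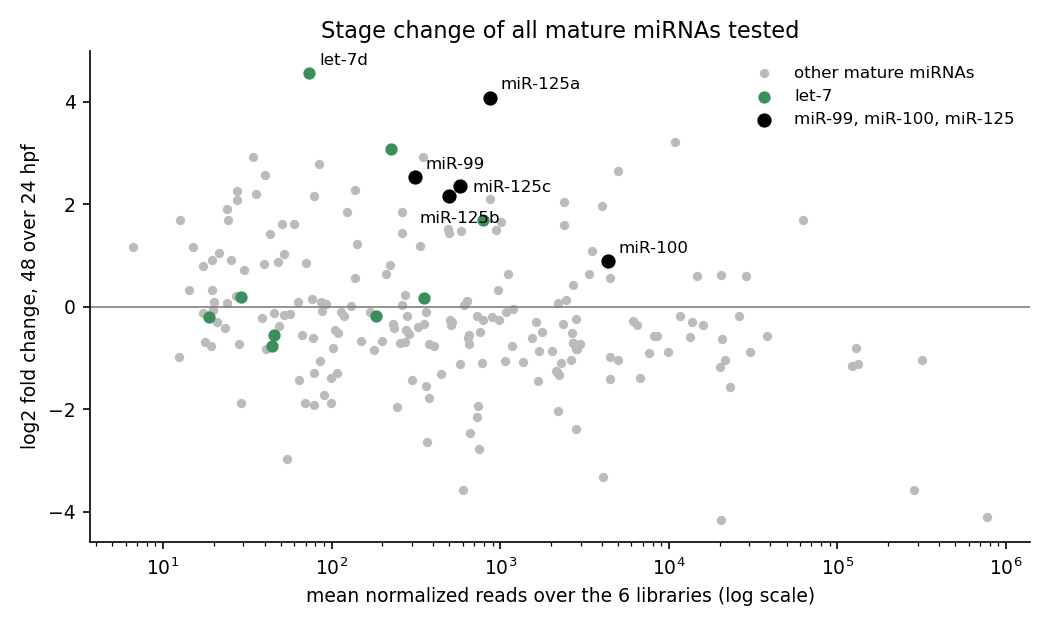
Log2 fold change from 24 to 48 hpf against the mean normalized reads over the 6 libraries (log axis), 1 point for each of the 214 mature miRNAs tested. The members (black) all lie above 0, from miR-100 at 0.89 to miR-125a at 4.08, while the let-7 miRNAs (green) lie on either side of 0.

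Ratios within a library do not depend on how the libraries were scaled. The normalized reads of miR-125a were 2.92% to 3.66% of those of miR-100 in the libraries at 24 hpf, 15.8% in the MO-Ct-labelled library at 48 hpf and 55.7% in the MO-Tbx5a-labelled library at 48 hpf. Over miR-125b, miR-125a had a ratio of 0.446 to 0.643 at 24 hpf, and of 1.39 and 2.63 in the libraries labelled MO-Ct and MO-Tbx5a at 48 hpf. The composition of the 5 members shifted accordingly, and the share of miR-100 went down to 63.6% and 48.0% of their normalized reads in the same order. The members together were 0.122% to 0.171% of the normalized reads of a library at 24 hpf, and 0.732% and 1.38% at 48 hpf. A library's total includes miR-430, which was 46.0% to 58.7% of it at 24 hpf, and 15.2% and 5.15% at 48 hpf. The rise in the share of the members therefore includes that fall.

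A pair of members from a shared cluster changed little in proportion, with the MO-Tbx5a-labelled library at 48 hpf just below the range at 24 hpf. This depended on the entry of miR-99, whose value is a mean over mir-99-1 and mir-99-2. From 24 to 48 hpf these rose by 2.26 and 2.91 on the log2 scale, against 2.35 for miR-125c. The ratio of miR-125c to miR-99, whose precursors mir-125c and mir-99-1 are neighbours, was 1.64 to 2.39 in the libraries at 24 hpf and 2.09 and 1.58 in the libraries labelled MO-Ct and MO-Tbx5a at 48 hpf. In contrast, miR-125b over miR-100, from partly neighbouring precursors, was 5.69% to 7.41% at 24 hpf and 11.4% and 21.2% at 48 hpf. miR-125b also has the precursor mir-125b-3, beside mir-99-2, so it need not all come from clusters shared with miR-100. These ratios have 4 libraries against 2, for which the smallest p of an exact one-sided permutation test is 0.0667, and no test was made.

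let-7 is the third partner of the clusters, and its members differed from each other in their change with stage. Of the 10 let-7 miRNAs of the table, 9 were tested, and 3 rose and 1 fell from 24 to 48 hpf at an adjusted p under 0.05 from limma, where 26.2% of all miRNAs rose. The 3 that rose by this mean over the morpholinos, let-7a, let-7c and let-7d, are those with a precursor next to a member. let-7d had 1.84 to 5.32 normalized reads at 24 hpf and passed the filter only through the libraries at 48 hpf. Its call as risen was thus largely fixed in advance by the filter and adds nothing to this pattern. However, let-7g, which has no such neighbour, had a log2 fold change of -0.30 within MO-Ct and 0.65 within MO-Tbx5a as labelled. With exchanged labels these were 0.85 and -0.50. let-7b, also without such a neighbour, did not pass the filter. It had 0 to 3.68 normalized reads at 24 hpf, and 2.80 and 35.6 in the libraries labelled MO-Ct and MO-Tbx5a at 48 hpf. The rise of let-7a rests on the MO-Tbx5a-labelled library: its log2 fold change as labelled was 0.32 within MO-Ct and 3.07 within MO-Tbx5a. With exchanged labels it was 2.91 and 0.48 in the same order. The median log2 fold change over the 9 was 0.17.

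The levels of these let-7 miRNAs at 48 hpf differed more between the libraries than those of most members. let-7a had 313 to 388 normalized reads at 24 hpf, 472 in the MO-Ct-labelled library at 48 hpf and 2845 in the MO-Tbx5a-labelled library. let-7c had 31.9 to 83.6 at 24 hpf, and 209 and 932 at 48 hpf. let-7d had 1.84 to 5.32 at 24 hpf, from an estimated 2 to 4 reads per library, and 40.8 and 386 at 48 hpf.

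In 3 pairs of a let-7 and a member, the proportion at 48 hpf departed from that at 24 hpf mainly in the MO-Tbx5a-labelled library. let-7a was 9.40% to 12.7% of miR-100 at 24 hpf and 8.54% in the MO-Ct-labelled library at 48 hpf, but 40.5% in the MO-Tbx5a-labelled library. let-7c was 28.4% to 63.2% of miR-99 at 24 hpf, 39.1% in the MO-Ct-labelled library at 48 hpf and 108% in the MO-Tbx5a-labelled library. let-7c over miR-125c was 12.6% to 26.5% at 24 hpf, and 18.7% and 68.6% in the libraries labelled MO-Ct and MO-Tbx5a at 48 hpf. For these 3 pairs the MO-Ct-labelled library at 48 hpf lay within or just below the range at 24 hpf, and the MO-Tbx5a-labelled library above it.

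The other pairs had another arrangement. The ratio of let-7a to miR-125b was 1.38 to 1.94 at 24 hpf, 0.752 in the MO-Ct-labelled library at 48 hpf and 1.91 in the MO-Tbx5a-labelled library. Here the MO-Ct-labelled library lay far below the range at 24 hpf, and the MO-Tbx5a-labelled library within it. The ratio of miR-125a to let-7d was 22.2 to 74.9 at 24 hpf, where let-7d had few reads, and 21.4 and 10.1 in the libraries labelled MO-Ct and MO-Tbx5a at 48 hpf.

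**Figure D3:**
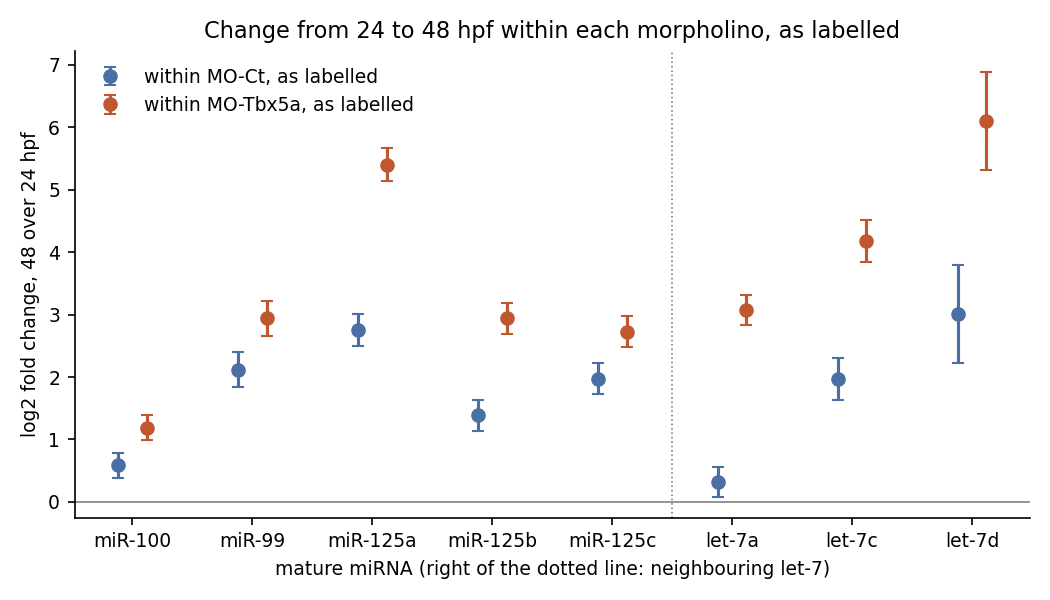
Log2 fold change from 24 to 48 hpf within MO-Ct and within MO-Tbx5a, as labelled, for the 5 members and the 3 neighbouring let-7 miRNAs; bars are standard errors from limma. As labelled, values within MO-Tbx5a are higher for each miRNA, from 0.59 and 1.19 for miR-100 to 2.75 and 5.40 for miR-125a among the members; with exchanged labels they are lower than within MO-Ct for the members other than miR-125c (4.92 and 3.23 for miR-125a in MO-Ct and MO-Tbx5a).

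No member passed the test between the morpholinos at 24 hpf. By limma with Benjamini-Hochberg adjustment over 210 miRNAs, 0 of the 5 members had an adjusted p under 0.05, while 7.62% of all miRNAs tested did. At an unadjusted p under 0.05 stood 1 member, miR-125c, and 21.0% of all miRNAs. All 5 estimates lay below 0, with a median of -0.30 against -0.01 over all miRNAs. By the latter median, at least as many of the 210 miRNAs lay below 0 as above. The estimate of miR-99 was -0.01 by the entry mir-99-1 alone, and 0.046 with library totals without miR-430.

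At 24 hpf the mean of miR-125a was 91.2 ± 8.65 normalized reads with MO-Tbx5a and 128 ± 13.8 with MO-Ct (SD, n = 2 libraries each). The fitted difference was -0.48 on the log2 scale, with a 95% interval of -1.03 to 0.07 and an adjusted p of 0.367 from limma. miR-125c had 204 ± 7.28 and 285 ± 43.9 (SD, n = 2 libraries each) in the same order. The fitted difference was -0.47 on the log2 scale, with an interval of -0.93 to -0.02 and an adjusted p of 0.205 from limma. The interval of miR-125c lay below 0, yet its p did not pass the adjustment over 210 miRNAs.

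For miR-100, miR-125b and miR-99 the log2 fold changes at 24 hpf were -0.25, -0.30 and -0.14, and limma gave adjusted p of 0.419, 0.512 and 0.782. Both MO-Tbx5a batches lay below both MO-Ct batches for 4 of the 5 members, all but miR-99, as they did for 29.5% of the 210 miRNAs. The smallest two-sided p of an exact permutation test of 2 libraries against 2 is 0.333.

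At 48 hpf all 5 members were higher in the MO-Tbx5a-labelled library than in the MO-Ct-labelled library, as were 47.9% of 219 miRNAs with at least 10 normalized reads in either library. miR-125a and miR-125b were at least 2-fold apart, with ratios of 4.49 and 2.38. Of the 219 miRNAs, 16.4% were at least 2-fold higher and 9.13% at least 2-fold lower in the MO-Tbx5a-labelled library. The ratios of the other members were 1.61 for miR-99, 1.27 for miR-100 and 1.21 for miR-125c. None of these has a replicate check at 48 hpf.

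The log2 ratio of miR-125a at 48 hpf was 2.16, while its batches at 24 hpf differed by 0.22 in MO-Ct and by -0.19 in MO-Tbx5a (batch 2 minus batch 1). For miR-125b the log2 ratio was 1.25, and its batches differed by -0.31 and -0.10. For both miRNAs the ratio at 48 hpf was thus wider than the distance between batches at 24 hpf, but its own spread is unknown.

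Whether the difference between the morpholinos changed with stage could be tested only if lone libraries at 48 hpf are taken to vary as the batches at 24 hpf do. Under this assumption, the difference at 48 hpf minus that at 24 hpf was 2.64 on the log2 scale for miR-125a (limma, adjusted p = 1.43e-10, standard error 0.37) and 1.55 for miR-125b (limma, adjusted p = 0.000163, standard error 0.36). For miR-99, miR-100 and miR-125c it was 0.82, 0.60 and 0.75, with adjusted p between 0.0898 and 0.101 from limma. This contrast was positive at an adjusted p under 0.05 for 15.9% of 214 miRNAs and negative for 17.3%. With the labels of the libraries at 48 hpf exchanged it was -1.68 for miR-125a and -0.94 for miR-125b (limma, adjusted p = 0.000119 and 0.0399), so the sign rests on those labels. Without MO-Ct batch 1 or without MO-Ct batch 2, the adjusted p of miR-125b was 0.0788 and 0.0550 from limma.

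**Figure D4:**
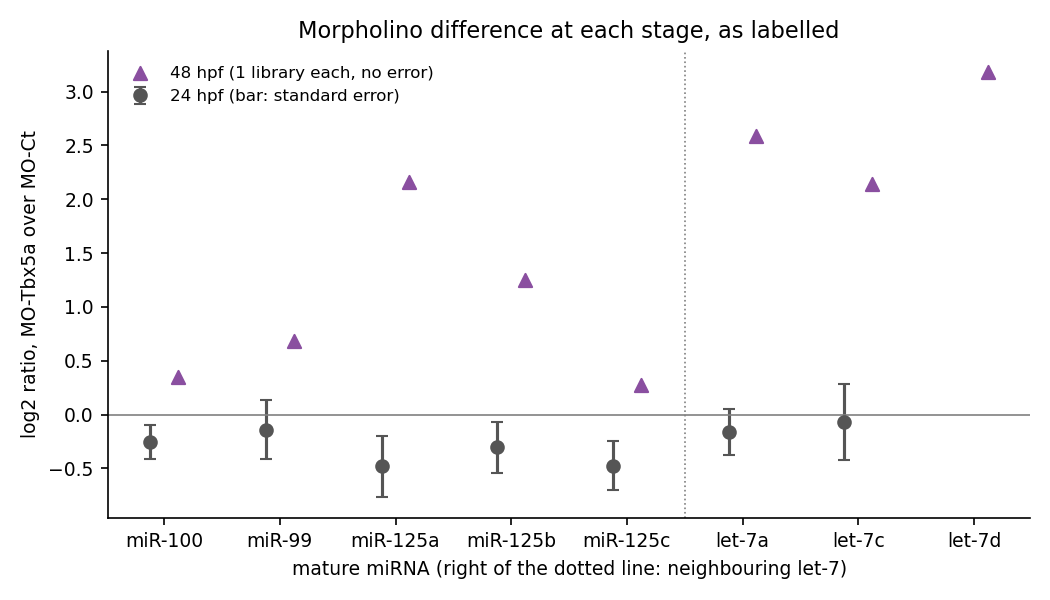
Log2 ratio of MO-Tbx5a over MO-Ct at 24 hpf (circles, bars are standard errors from limma) and at 48 hpf as labelled (triangles, 1 library each, no error) for the 5 members and the neighbouring let-7 miRNAs. The members lie between -0.48 and -0.14 at 24 hpf and between 0.28 and 2.16 at 48 hpf; let-7d is shown at 48 hpf only, since it did not pass the filter at 24 hpf.

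Other measures also differed between the libraries at 48 hpf, in either direction. The miR-430 share of the MO-Tbx5a-labelled library at 48 hpf, 5.15%, was farther from that at 24 hpf than the 15.2% of the MO-Ct-labelled library. The summed normalized reads of the nervous system markers miR-9-5p and miR-124 were 1973 to 3068 in the libraries at 24 hpf, 11299 in the MO-Ct-labelled library at 48 hpf and 45493 in the MO-Tbx5a-labelled library. Over the whole marker list the sum was 33880 to 46175 at 24 hpf, and 42544 and 72496 at 48 hpf. Without miR-9-5p it was 31580 to 43498 at 24 hpf, and 31482 and 27724 in the libraries labelled MO-Ct and MO-Tbx5a at 48 hpf. Of the 10 marker miRNAs, 4 were higher and 6 lower in the MO-Tbx5a-labelled library. The higher ones were miR-9-5p, miR-124 and the blood miRNAs miR-451 and miR-144. miR-451 had 106 in the MO-Ct-labelled library and 299 in the MO-Tbx5a-labelled library, and miR-144 had 64.35 and 143. Among the lower ones were the muscle miRNA miR-206, with 2507 and 1366 in the same order, and the epidermal miR-203a, with 4412 and 2338. The other epidermal marker, miR-205, was nearly level, with 15132 and 14888. The part of these measures in the levels of miR-99, miR-100 and miR-125 was not tested. In whole embryos, more cells that hold a miRNA and more of it per cell cannot be told apart.

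The miRNAs most alike in profile over the 6 libraries were shared by some members and differed between others. miR-99 and miR-125c had the same 3, and miR-143 was also among those of miR-125b. Likeness was measured as the root mean square difference of centred log2 values, among 129 other miRNAs whose mean was 200 normalized reads or more. For miR-125a the closest was miR-9-5p, a miRNA of neural progenitors, with a difference of 0.44, followed by miR-9-3p with 0.59 and let-7c with 0.60. miR-99 lay closest to miR-143, with a difference of 0.14, then to miR-133a-3p and miR-216b with 0.39 each.

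miR-125c lay closest to miR-133a-3p, a muscle miRNA, with 0.22, then to miR-216b with 0.24 and miR-143 with 0.25. miR-125b lay closest to miR-181c with 0.21, then to miR-138 with 0.25 and miR-143 with 0.30. miR-100 lay closest to miR-128, a brain miRNA, with 0.22, then to miR-26b with 0.26 and miR-10d-5p with 0.27. Among the members themselves, miR-99 and miR-125c were the closest pair with 0.22 and miR-100 and miR-125a the farthest apart with 1.59. These are distances over 6 libraries in which stage is the main difference.

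The precursor entries of miR-99 differed, while those of the other members did not by more than 3.71% of the highest entry. For miR-99 the entry mir-99-2 had 64.1% and 64.6% of the normalized reads of mir-99-1 in MO-Ct batches 1 and 2 at 24 hpf, and 50.0% and 49.7% in MO-Tbx5a batches 1 and 2. At 48 hpf it had 84.2% in the MO-Ct-labelled library and 95.9% in the MO-Tbx5a-labelled library. The surplus of mir-99-1 was an estimated 37 to 76 reads per library at 24 hpf, and 197 and 66 reads in the libraries labelled MO-Ct and MO-Tbx5a at 48 hpf.

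The change of miR-99 therefore depended on the entry. The log2 fold change from 24 to 48 hpf was 2.26 by mir-99-1 and 2.91 by mir-99-2. At 24 hpf the log2 difference of MO-Tbx5a minus MO-Ct was -0.01 by mir-99-1 and -0.37 by mir-99-2, and at 48 hpf, as labelled, it was 0.59 and 0.78. In the fit across all miRNAs with the lowest entry of each, the change of the morpholino difference of miR-99 with stage had an adjusted p of 0.0246 from limma.

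**Figure D5:**
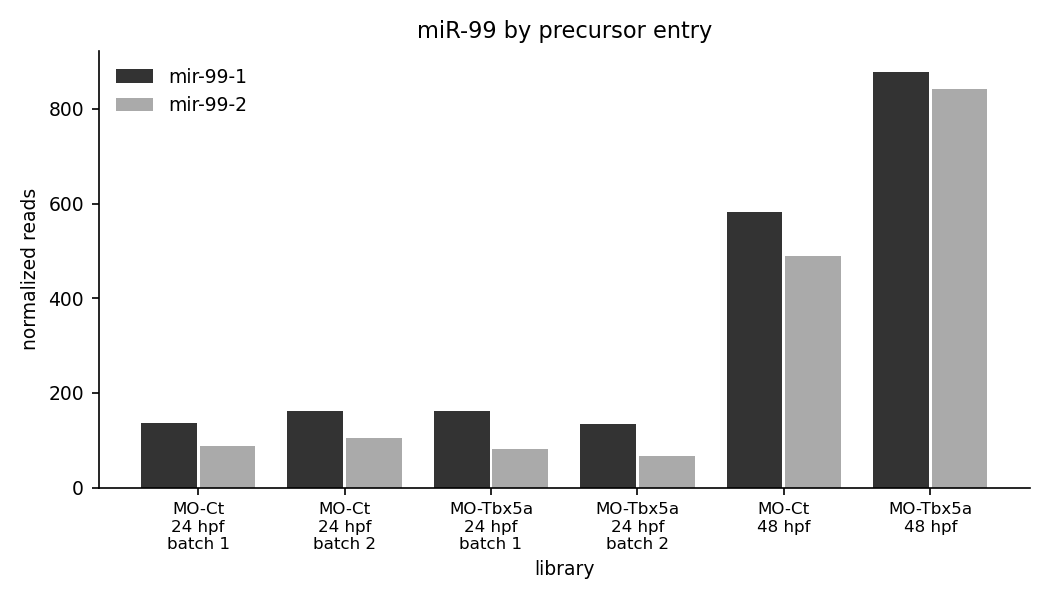
Normalized reads of miR-99 by precursor entry, mir-99-1 and mir-99-2, in each of the 6 libraries (bars from 0, 1 library each). mir-99-2 is below mir-99-1 throughout, with 49.7% to 64.6% of its reads at 24 hpf and 84.2% to 95.9% at 48 hpf.

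miR-99 and miR-100 are nearly identical in sequence, and miR-125a, miR-125b and miR-125c are also close to each other. The authors' mapping allowed reads with 95% identity, so reads could be counted for more than 1 of them. miR-99 had 3.14% to 3.62% as many normalized reads as miR-100 at 24 hpf, and 9.71% and 12.3% in the libraries labelled MO-Ct and MO-Tbx5a at 48 hpf. The share of miR-99 reads that belongs to miR-100 was not tested, and neither was any sharing of reads among miR-125a, miR-125b and miR-125c.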

How the data were processed

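Small RNA was sequenced from 6 libraries, grouped by their labels. The authors trimmed adapters, mapped reads of 17 to 38 bases with miRExpress to zebrafish precursors of miRBase release 20 at 95% identity with a length tolerance of 4 bases, summed the reads of a miRNA and scaled each library by its DESeq size factor. Per the labels, CASAVA 1.8 was used upstream. The deposited values are a signal, called normalized reads. They are whole multiples of 1 step per library within 0.1 reads, except for 1 value in each library at 48 hpf, and the step was taken as 1 read assignment to estimate depth. Counting errors cover the sampling of reads only.

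Values of precursor entries were averaged. limma 3.58.1 in R 4.3.3 was run on log2(value + 2), with a variance trend, for miRNAs with at least 10 in at least 2 libraries of the fit. Tests were two-sided, with Benjamini-Hochberg adjustment over all miRNAs tested, and called at an adjusted p under 0.05. The fit was tested on simulated data. At 48 hpf a ratio was counted at 2-fold. The p-values measure the spread between the batches of pooled embryos at 24 hpf, pooled over miRNAs of similar abundance. A miRNA's own spread had no separate weight in the fits of all 6 libraries, and little in the fit at 24 hpf. No count test was run, since the values are normalized. Neighbouring genes were taken from RefSeq (GRCz12tu), by the distance between gene starts; coordinates are not printed, since the deposited table names no genome build. Mature sequences were not used here. Named are the members, the neighbouring let-7 miRNAs, the markers and the 3 most alike miRNAs of each member. Members and lists were chosen with earlier results of these data known. The alternatives were scalings, pseudocounts, filters, precursor entries, fits and the omission of single libraries at 24 hpf. Python 3.11.15 with numpy 2.4.6 and pandas 2.3.3 was used.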

Additional observations from a re-analysis of the deposited data

Results flagged for a closer look

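The difference between MO-Tbx5a and MO-Ct changed with stage for miR-125a, by 2.64 on the log2 scale from 24 to 48 hpf as labelled, and for miR-125b, by 1.55. Both passed the test of that difference itself with limma. It takes a lone library at 48 hpf to vary as the batches at 24 hpf do, a spread that these libraries cannot show. Many other miRNAs passed it in either direction, by the shares given above. The calls therefore cannot be read as particular to miR-125a and miR-125b. The sign of both rests on the labels at 48 hpf, and miR-125b no longer passed without either MO-Ct batch (adjusted p of 0.0788 and 0.0550 from limma).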

How the results depend on the processing

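The exchanges of the labels at 48 hpf and the alternatives for the difference between stages were chosen after seeing the data. The count of members that rose from 24 to 48 hpf, 5, and of members called between the morpholinos at 24 hpf, 0, did not change under any of the 19 and 16 alternatives run for each, and leaving out each library at 24 hpf gave 5 and 0 throughout. With the replicate block, 0 members were called at 24 hpf as well; equal batch numbers are not stated to share anything, and across 210 miRNAs the differences between batches correlated between the groups at 0.279. The number of members at least 2-fold apart at 48 hpf, 2, was 1 at 4-fold and 3 at 1.5-fold, where miR-99 was added. The number whose morpholino difference changed with stage, 2, was 4 with median-ratio size factors, and 1 to 2 with each library at 24 hpf left out. For the counts at 48 hpf and of the change with stage, the shares of all miRNAs under the same alternatives are not given here. Those counts therefore cannot be read as particular to the members. With library totals without miR-430 the log2 fold change of miR-99 at 24 hpf was 0.046. With exchanged labels, log2 ratios at 48 hpf were -0.35 for miR-100, -2.16 for miR-125a, -1.25 for miR-125b, -0.28 for miR-125c and -0.68 for miR-99. The morpholino difference at 48 hpf minus that at 24 hpf was then -0.094 for miR-100, -1.68 for miR-125a and -0.94 for miR-125b. For miR-99 it was -0.54, and for miR-125c 0.20. The cause of these changes, other than the exchange itself, was not tested. The median of all miRNAs at 48 against 24 hpf moved by 1.40 with library totals, 0.50 without miR-430 and 0.32 with median-ratio size factors. The members had an estimated 1149 to 12841 reads at 48 hpf, and all but miR-100 had 52 to 344 at 24 hpf. These are read assignments, and the study's own totals are lower for each library, so the reads behind them may be fewer. How far depth limits the members was not tested.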
